A study of Mus musculus with 3 samples.

Results

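The genes described here are the cyclins of the A, B, D and E classes, the cyclin-dependent kinases (CDKs), the CDK inhibitors, the E2F transcription factors and the retinoblastoma family of pocket proteins. They were taken by symbol from the gene tables of 3 mouse mammary tumours, which gave 46 genes of 21881 symbols. The symbols were Ccn followed by a, b, d or e and a digit, Cdk followed by a number, Cdkn1 or Cdkn2 followed by a letter from a to d, E2f followed by a digit, and Rb1, Rbl1 and Rbl2. The 3 tumours form a single group. Each grew in a different female mouse, of strain FVB/NJ in the protocol and FVB/N in the sample labels, after cultured NDL(UCD) cells (0.1 to 2.0 times 1e6) had been injected at 6 to 8 weeks of age into fat pads that were not cleared of host epithelium, and each was snap-frozen at 5 to 10 mm. NDL(UCD) comes from an ErbB2 breast cancer model, in which a mammary tumour virus promoter is known to drive a transgene of activated Erbb2 (Neu). All 3 tumours therefore carry the same line, there was no untreated, normal or second tumour group, and host stroma and immune cells are part of each sample. Total RNA depleted of ribosomal RNA was sequenced in 1 library per tumour. Tumour numbers follow the accession order and carry no other meaning.

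Progression through the cell cycle is driven by CDKs, kinases that are active only when bound to a cyclin. Mitogen signalling, including that of ErbB2, is known to raise the D cyclins, which with CDK4 or CDK6 phosphorylate the retinoblastoma protein. Phosphorylated pocket proteins release E2F factors, which switch on genes of DNA synthesis, and the E, A and B cyclins then drive entry into S phase and mitosis. Inhibitors of the INK4 class bind CDK4 and CDK6, and those of the CIP/KIP class bind cyclin-CDK complexes more widely.

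The promoters of several members hold letters known as sites of this circuit. RefSeq windows (GRCm38.p6, 250 bases before to 50 after a transcript start) were found for 35 of the 46 genes. The other 11 are Ccna2, Ccnd1, Ccnd2, Ccne2, Cdk5, Cdk17, Cdk19, Cdkn1c, E2f4, E2f5 and Rb1. An E2F core was searched on both strands as the letters GCGGGAA, as the variant spelled GCGCGAA and as the variant spelled GCGCCAA. Any of these lay in at least 1 window of 11 of the 35 genes (31.4%) and of 9.20% of all 27025 genes in the table. The letters of the cell cycle homology region, TTTGAA, were in 8 of 35 (22.9%), near the 20.2% of all genes. CCAAT was in 18 of 35 (51.4%) against 41.1%. No difference in these shares was tested. A CCAAT match can share letters with GCGCCAA, as it does in Ccnb1 and E2f8. Shown here are the 120 bases before the start, 5′ to 3′ on the gene's strand. The genes are the mitotic cyclins and their kinase, in which CCAAT letters recur, and 3 of the G1 to S step with an E2F core. Of the mitotic stretches, that of Cdk1 also holds TTTGAA and that of Ccnb1 an E2F core. The window of Cdk1 has E2F cores 178 and 130 bases before the start, outside the bases shown. Capitals mark matches of these motifs on either strand.
Ccnb1: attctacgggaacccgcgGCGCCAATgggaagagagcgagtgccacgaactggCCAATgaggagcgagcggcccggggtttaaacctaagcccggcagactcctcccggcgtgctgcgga
Ccnb2: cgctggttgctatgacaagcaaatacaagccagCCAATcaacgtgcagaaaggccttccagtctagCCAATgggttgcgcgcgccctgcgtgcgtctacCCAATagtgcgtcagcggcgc
Cdk1: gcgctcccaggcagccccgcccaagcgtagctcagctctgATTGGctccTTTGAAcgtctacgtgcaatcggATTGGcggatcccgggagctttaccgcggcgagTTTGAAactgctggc
Cdk2: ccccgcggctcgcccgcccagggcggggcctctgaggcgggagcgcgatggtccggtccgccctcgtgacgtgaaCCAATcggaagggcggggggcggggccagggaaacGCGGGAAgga
E2f8: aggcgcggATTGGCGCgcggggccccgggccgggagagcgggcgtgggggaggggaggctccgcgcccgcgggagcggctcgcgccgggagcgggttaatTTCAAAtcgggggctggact
Rbl1: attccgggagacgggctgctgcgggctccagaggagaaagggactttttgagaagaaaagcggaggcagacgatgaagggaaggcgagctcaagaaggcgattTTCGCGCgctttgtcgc

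All of these stretches lie on the minus strand. Those of Ccnb1 and Ccnb2 are chr13:100786487-100786606 and chr9:70421555-70421674, and that of Cdk1 is chr10:69352913-69353032. The stretches of Cdk2, E2f8 and Rbl1 are chr10:128705052-128705171, chr7:48881597-48881716 and chr2:157204535-157204654. In Ccnb2 the CCAAT letters began 87, 54 and 21 bases before the start, and TTTGAA followed 5 bases into the transcript. In Cdk1 reversed CCAAT letters began 80 and 48 bases before the start, and TTTGAA 71 and 15 bases before it. A match is a match of letters and was not measured as a bound site.

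Levels are given in FPKM (fragments per kilobase of transcript per 1e6 mapped fragments), so that levels of different genes can be compared. The deposited intervals imply 11.7, 12.4 and 13.4 M (1e6) fragments in tumours 1, 2 and 3, and for the 46 genes a median of 332, 353 and 407 fragments among those above 0. Epithelial marker genes (Epcam, Krt8, Krt18, Cdh1 and Erbb2) summed to 901, 1254 and 1180 FPKM, and Erbb2 lay at 199.9, 195.3 and 189.7 FPKM. The 6 macrophage markers found summed to 251, 451 and 881 FPKM, the 6 fibroblast markers to 174, 293 and 261, and the 5 adipocyte markers to 60.3, 44.7 and 195 FPKM. T-cell markers summed to 2.01, 4.81 and 10.4 FPKM and B-cell markers to at most 0.714 FPKM. In bulk tissue, fewer cells of a type and less RNA per cell cannot be told apart.

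Library composition differed between the tumours in a way that touches every comparison among them. From the fifth of genes with the lowest GC content of their transcripts (31.0 to 43.9%) to the fifth with the highest (55.2 to 72.8%), the median difference of tumour 3 minus tumour 1 went from -1.09 to 0.80 on the log2(FPKM + 0.1) scale. Values with these GC and length trends removed are therefore given beside the deposited ones for many of the members. The epithelial marker sum was then 1246, 1145 and 926 FPKM and Erbb2 260, 182 and 157 FPKM in tumours 1, 2 and 3. Both were thus highest in tumour 1, whereas as deposited the sum was lowest there and Erbb2 nearly level. Of the 39 members whose mean reached 1 FPKM, 17 changed the sign of tumour 3 minus tumour 1 on removal, 12 from positive to negative and 5 from negative to positive. Removal shifts every gene according to its GC content and length. The same count was not made over all genes, so it cannot be read as particular to these members. The members' transcripts ranged from 36.3% GC (Ccne2) to 60.2% (Cdkn2a). As deposited, 21 of the 39 members were highest in tumour 3 and 11 in tumour 1. Over all genes whose mean reached 1 FPKM the shares were 47.4% and 28.7%. The median of tumour 3 minus tumour 1 was 0.38 log2 units for all these genes and 0.45 for the members.

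Most of the cell cycle regulators were well above 1 FPKM, a conventional level of clear expression. By limma with Benjamini-Hochberg adjustment over 18028 genes at 0.05, 36 of the 46 were above it, 5 below and 3 not separated from it, and 2 were listed at 0 in every tumour. Across all genes tested, 54.2% were above and 32.5% below. The median level of a tested member was 2.21 log2 units over 1 FPKM against 1.09 for all tested genes. When every tumour was rescaled to an FPKM sum of 1000000, which shifted the median gene upward by 1.46 on the log2 scale, 39 members were above and 1 below, against 64.5% and 23.3% of all genes. Without tumour 1, 2 or 3 the count above was 37, 31 and 33, beside 56.2%, 51.2% and 55.2% of all genes.

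**Figure D1:**
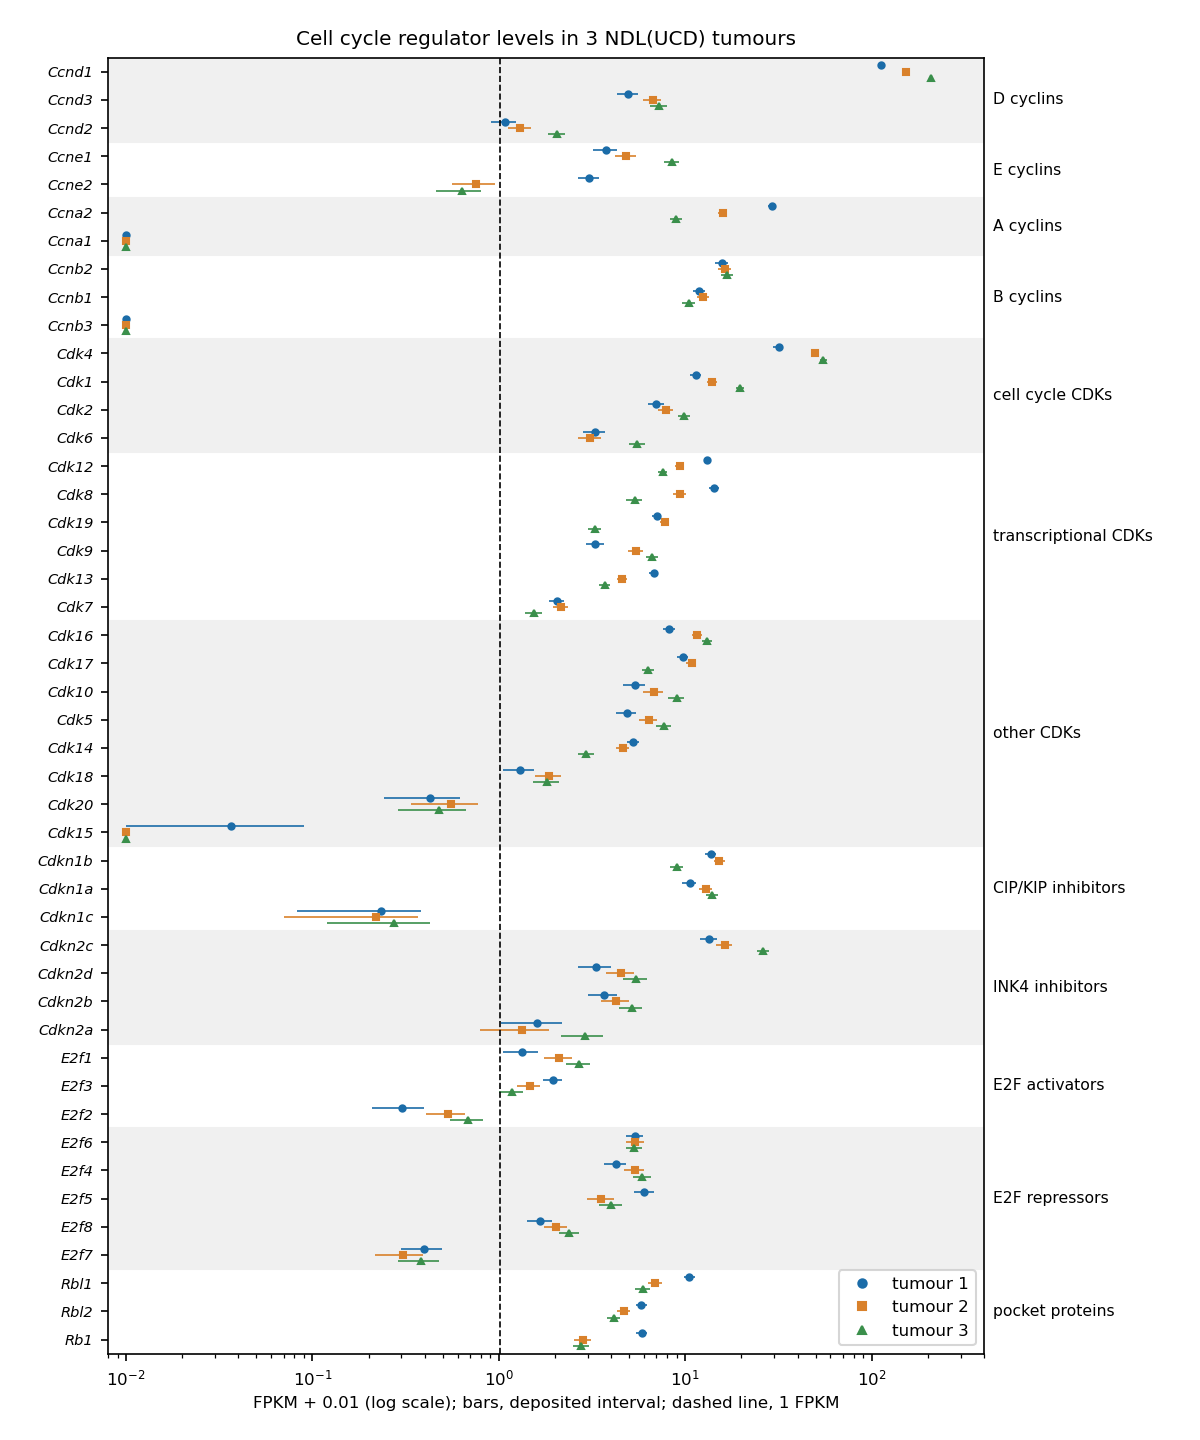
FPKM of the 46 genes (horizontal axis, log scale, 0.01 added) in tumours 1 to 3, by role, with the deposited intervals as bars and 1 FPKM as the dashed line. Ccnd1 is the highest at 113 to 208 FPKM, Cdk4 follows at 31.6 to 55.0 FPKM, and Ccna1 and Ccnb3 sit at 0.

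Cyclin D1 dominated the D class. Ccnd1, the D cyclin linked to ErbB2 signalling in mammary epithelium, was at 113, 153 and 208 FPKM in tumours 1, 2 and 3, a mean of 158 ± 47.9 (SD, n = 3), and lay at or above 98.6% of all genes tested. Ccnd3, a paralog common in lymphoid cells, was at 4.90, 6.67 and 7.20 FPKM. Ccnd2, the remaining D cyclin, was at 1.06, 1.29 and 2.04 FPKM and was not separated from 1 FPKM (limma adjusted p = 0.165), but was called above it without tumour 1 (0.0446). The order Ccnd1, Ccnd3, Ccnd2 held in each tumour, with Ccnd1 ahead of Ccnd3 by 4.61 ± 0.19 log2 units (a 24.4-fold difference) and of Ccnd2 by 6.66 ± 0.11 (101-fold). Ccnd1 made up 95.3 ± 0.425% of the summed D cyclin FPKM. All 3 genes were highest in tumour 3 and lowest in tumour 1 as deposited, where Ccnd1 spanned a ratio of 1.85. Of all genes whose mean reached 1 FPKM, 47.4% were highest in tumour 3 as deposited. With the GC and length trends removed Ccnd1 was at 139, 142 and 183 FPKM, and Ccnd3 was lowest in tumour 3.

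The E cyclins, which activate CDK2 at the start of S phase, differed in how evenly they were expressed. As deposited Ccne1 was at 3.74, 4.79 and 8.50 FPKM, lowest in tumour 1 and highest in tumour 3. Ccne2 went the other way, at 3.03, 0.747 and 0.624 FPKM, and its mean of 1.47 ± 1.35 FPKM (SD, n = 3) was not separated from 1 FPKM (limma adjusted p = 0.714). Ccne1 was therefore 55.3%, 86.5% and 93.2% of the E cyclin FPKM in tumours 1, 2 and 3. Once the trends were removed Ccne1 was at 5.12, 4.35 and 6.82 FPKM, lowest in tumour 2. Ccne2 was then at 1.53, 0.874 and 0.996 FPKM, its ratio of highest to lowest tumour went from 4.85 to 1.75, and the share of Ccne1 was 77.0%, 83.3% and 87.3%. Ccne1 exceeded Ccne2 by 2.13 ± 1.67 log2 units as deposited and by 2.18 ± 0.49 with the trends removed. The difference was positive in 3 of 3 tumours in both cases. Their transcripts stand apart in composition, at 52.7% GC for Ccne1 and 36.3% for Ccne2. The trends were fitted to deviations from each gene's own mean over tumours. Removal therefore leaves a mean difference between genes nearly unchanged by construction, and cannot show whether GC content affects it.

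Cyclin A2, the S and G2 phase cyclin of dividing somatic cells, had the largest CV over tumours of the 39 members whose mean reached 1 FPKM, apart from Ccne2. Ccna2 was at 29.1, 15.8 and 8.93 FPKM, with deposited intervals that did not overlap, and at 29.0, 14.99 and 9.52 FPKM after removal of the trends. Ccna1, known from the germ line, was listed at 0 in all 3 tumours, where a count of 0 allows 0.0439, 0.0459 and 0.0412 FPKM at a locus of median size, for counting error only. As deposited, the mitotic B cyclins had the lowest CVs of the cyclins tested, 2.89% for Ccnb2 and 8.92% for Ccnb1. With the trends removed Ccnd3 had the lowest, 6.75%, beside 8.63% for Ccnb1 and 15.4% for Ccnb2. Ccnb2 was at 15.8, 16.3 and 16.7 FPKM and Ccnb1 at 11.8, 12.4 and 10.4 FPKM. Their intervals overlapped across all tumours for Ccnb2, and Ccnb2 exceeded Ccnb1 in each tumour, by 0.49 ± 0.16 log2 units. Ccnb3, a meiotic B cyclin, was listed at 0 in all 3.

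Among the CDKs that drive the cycle, Cdk4 was the highest and Cdk6 the lowest. Cdk4, a partner of the D cyclins, was at 31.6, 49.9 and 55.0 FPKM (45.5 ± 12.3, SD, n = 3), and its paralog Cdk6 at 3.27, 3.08 and 5.51 FPKM. Cdk4 exceeded Cdk6 by 3.50 ± 0.41 log2 units, an 11.3-fold difference. Cdk1, the mitotic kinase, was at 11.4, 13.9 and 19.7 FPKM, and Cdk2, the partner of E and A cyclins, at 6.99, 7.82 and 9.86 FPKM. Cdk1 exceeded Cdk2 by 0.84 ± 0.15 log2 units. The order Cdk4, Cdk1, Cdk2, Cdk6 held in each of the 3 tumours, and every step was larger than its SD over tumours. Cdk1, Cdk2 and Cdk4 were lowest in tumour 1 and highest in tumour 3 as deposited, whereas Ccna2, which binds Cdk1 and Cdk2, had the opposite order. With the trends removed Cdk4 was nearly level, at 43.8, 45.3 and 43.6 FPKM, and Cdk1 remained highest in tumour 3 at 11.8, 13.2 and 20.1 FPKM. Cdk2 was then at 7.98, 7.29 and 9.28 FPKM, still highest in tumour 3 but lowest in tumour 2.

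Kinases that act on transcription were all 6 above 1 FPKM. Cdk12, which phosphorylates RNA polymerase II during elongation, was at 13.1, 9.33 and 7.57 FPKM, and its paralog Cdk13 at 6.74, 4.57 and 3.69 FPKM. Both were highest in tumour 1 and lowest in tumour 3, but with the trends removed Cdk13 was at 4.86, 5.02 and 4.76 FPKM while Cdk12 kept a range from 13.9 to 7.51 FPKM. Cdk12 lies near Erbb2 on mm9 chromosome 11 (98064619 to 98114854), ending 158.9 kb before the start of Erbb2 at 98273798. Its mean of 10.0 ± 2.83 FPKM (SD, n = 3) compares with 189.7 to 199.9 FPKM for Erbb2 as deposited. FPKM per symbol does not separate an Erbb2 transgene from the mouse gene at this locus. The Mediator kinase Cdk8 was at 14.3, 9.33 and 5.35 FPKM and its paralog Cdk19 at 7.01, 7.75 and 3.26 FPKM. Removing the trends put Cdk8 at 10.5, 9.47 and 7.17 FPKM, and its ratio of highest to lowest tumour went from 2.67 to 1.46. Cdk8 was the higher of this pair in each tumour, by 0.66 ± 0.38 log2 units. Cdk9, the kinase of the elongation factor P-TEFb, was at 3.28, 5.42 and 6.63 FPKM, or 4.01, 5.01 and 5.88 FPKM with the trends removed, and Cdk7, the CDK-activating kinase, was the lowest of the 6 at 2.03, 2.13 and 1.53 FPKM. Without tumour 2, Cdk7 was not called above 1 FPKM (limma adjusted p = 0.202).

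Of the 8 other CDKs, 6 were above 1 FPKM. Cdk16 (10.9 ± 2.50 FPKM), Cdk17 (8.91 ± 2.34), Cdk10 (7.03 ± 1.84), Cdk5 (6.28 ± 1.40) and Cdk14 (4.26 ± 1.20) followed each other by steps that, except for Cdk10 over Cdk5, were within the SD over 3 tumours. Cdk5 is best known from neurons, where the activators p35 and p39 turn it on. Their genes Cdk5r1 and Cdk5r2 were at 0.285 ± 0.0611 FPKM and listed at 0 in every tumour. Cdk18 was at 1.65 ± 0.308 FPKM, just above 1 FPKM (limma adjusted p = 0.0463), and with a pseudocount of 1 or without tumour 2 or 3 it was no longer called. Cdk20 was below that level at 0.477 ± 0.0630 FPKM, though not called without tumour 2 (limma adjusted p = 0.0656), and Cdk15 rested on 1 implied fragment in tumour 1 and was listed at 0 in the others.

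The CIP/KIP inhibitors p21 and p27 were present at like levels. Cdkn1a, which encodes p21 and is a classical p53 target, was at 10.5, 12.9 and 13.9 FPKM, and Cdkn1b, which encodes p27, at 13.7, 15.2 and 8.98 FPKM. As deposited Cdkn1b was the higher in tumours 1 and 2 and Cdkn1a in tumour 3, and their difference was 0.00 ± 0.54 log2 units (SD, n = 3). With the trends removed Cdkn1a was at 14.8, 11.8 and 10.8 FPKM and Cdkn1b at 10.3, 15.4 and 11.9 FPKM, so that Cdkn1a was the higher in tumour 1 and Cdkn1b in tumours 2 and 3. As deposited and without tumour 3, Cdkn1a minus Cdkn1b was -0.30. Cdkn1c, an imprinted gene that encodes p57, was below 1 FPKM at 0.222, 0.210 and 0.262 FPKM and made up 0.928 ± 0.197% of the class.

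Cdkn2c was the leading INK4 inhibitor. The gene, which encodes p18, was at 13.4, 16.3 and 26.2 FPKM and made up 63.0 ± 2.73% of the INK4 sum. It exceeded Cdkn2d, the p19 INK4 gene, by 2.02 ± 0.21 log2 units. Cdkn2d is listed at 2 places on mm9 chromosome 9 (21092908 to 21095653 and 123836860 to 123839607) with nearly equal values, 1.66 and 1.66 FPKM in tumour 1, and the sums used here were 3.31, 4.50 and 5.44 FPKM. The split of fragments between these places is unknown here, so its level is uncertain. Cdkn2b, which encodes p15, was at 3.65, 4.24 and 5.14 FPKM, level with Cdkn2d within the spread between tumours. Cdkn2a, whose locus gives both p16 and the p53 activator ARF, was lowest at 1.59, 1.31 and 2.88 FPKM, and FPKM per symbol does not separate the 2 products. It was above 1 FPKM in the fit over all tumours (limma adjusted p = 0.0305), but not without tumour 2 (0.0812) or without tumour 3 (0.218). The deposited values of all 4 INK4 genes were highest in tumour 3, as were those of 47.4% of all genes whose mean reached 1 FPKM. With the trends removed 3 of the 4 (Cdkn2a, Cdkn2b and Cdkn2d) were highest in tumour 1.

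Of the E2F genes, E2f4, E2f5 and E2f6, known as repressors, had higher mean levels than the activators E2f1, E2f2 and E2f3. E2f4, which acts with pocket proteins in resting cells, was at 4.21, 5.34 and 5.88 FPKM, E2f5 at 6.02, 3.54 and 4.00 FPKM and E2f6 at 5.36, 5.39 and 5.32 FPKM. E2f6 was the steadiest of these 39 members as deposited, with a CV of 0.633%, but spread to 6.33, 4.99 and 4.86 FPKM with the trends removed. After removal of the trends E2f4 was at 6.01, 4.86 and 4.52 FPKM, highest in tumour 1 and not in tumour 3, and E2f5 at 6.37, 3.32 and 4.04 FPKM. The activator E2f1 was at 1.32, 2.10 and 2.67 FPKM, and E2f3 at 1.94, 1.45 and 1.16 FPKM was not separated from 1 FPKM (limma adjusted p = 0.103). E2f2, the remaining activator, was below it at 0.292, 0.522 and 0.671 FPKM. E2f4 exceeded E2f1 by 1.34 ± 0.25 log2 units and E2f6 exceeded it by 1.41 ± 0.49, in 3 of 3 tumours each. E2f1 minus E2f3 was 0.37 ± 0.83, negative in tumour 1 and positive in the other tumours. Without tumour 2 or tumour 3 E2f1 was not called above 1 FPKM (limma adjusted p = 0.1515 and 0.0820). Of the atypical repressors, which are themselves made in S phase, E2f8 was at 1.66, 2.01 and 2.38 FPKM and E2f7 below 1 FPKM at 0.387, 0.295 and 0.373 FPKM. E2f8 was not called without tumour 2 (limma adjusted p = 0.119), nor E2f2 without tumour 1 (0.0668) or tumour 2 (0.0713).

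All 3 pocket protein genes were expressed above 1 FPKM. Rbl1, which encodes p107 and is an E2F target with an E2F core in the stretch shown above, was highest at 10.5, 6.89 and 5.92 FPKM. Rbl2, which encodes p130, was at 5.81, 4.67 and 4.11 FPKM, and Rb1, the retinoblastoma gene, at 5.82, 2.82 and 2.76 FPKM. Rb1 minus Rbl1 was -1.06 ± 0.21 log2 units and Rbl1 minus Rbl2 was 0.64 ± 0.18, each with the same sign in 3 of 3 tumours. Rb1 minus Rbl2 was -0.42 ± 0.38, negative in tumours 2 and 3 and near 0 in tumour 1, where the 2 genes stood within 2 standard errors of each other. Rbl1 kept 47.2 ± 0.838% of the pocket protein sum, and all 3 genes were highest in tumour 1 as deposited. After the trends were removed Rbl1 was at 7.24, 7.14 and 8.30 FPKM and, like Rb1, highest in tumour 3, while Rbl2 stayed highest in tumour 1 at 5.65, 4.49 and 4.43 FPKM.

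**Figure D2:**
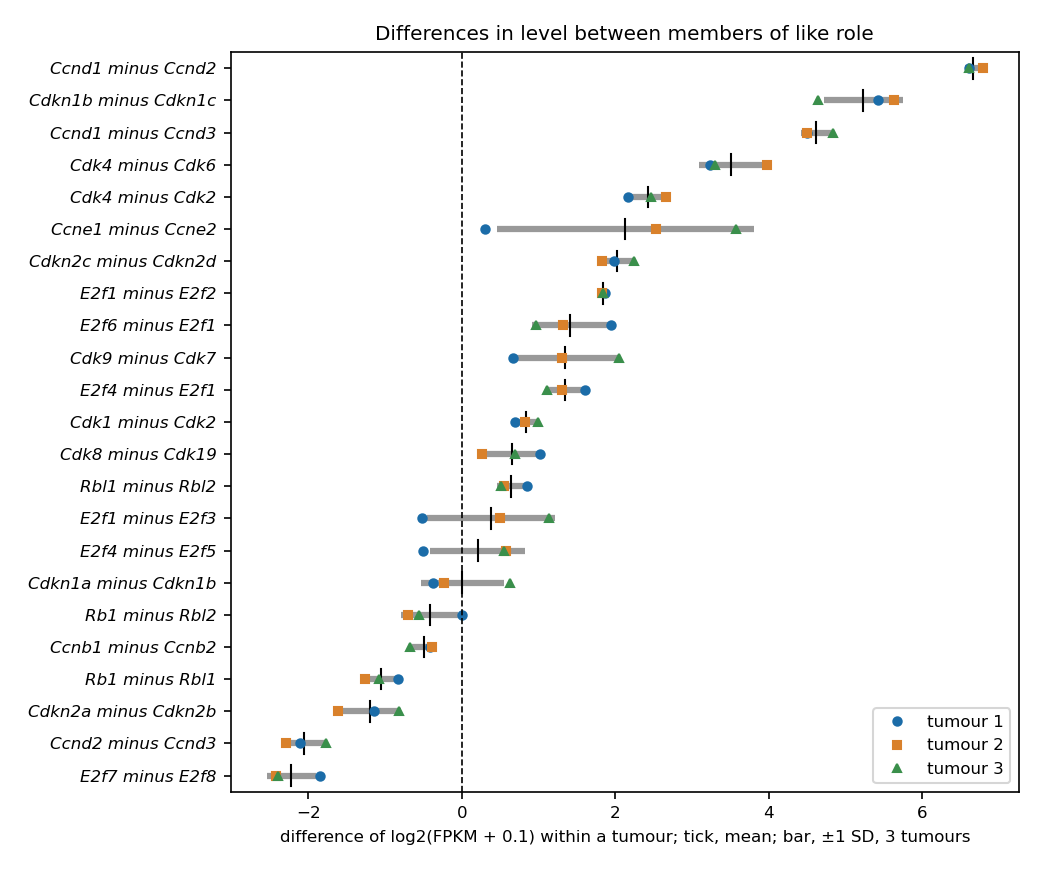
Difference of log2(FPKM + 0.1) between 2 members of like role in each tumour (points), with the mean (tick) and 1 SD over 3 tumours (bar). Of 23 differences, 19 have a single sign in all 3 tumours, from 6.66 for Ccnd1 minus Ccnd2 to -2.22 for E2f7 minus E2f8.

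Across the 23 differences between members of like role, 19 had the same sign in all 3 tumours, and in these 19 the 2 genes stood more than 2 deposited standard errors of their difference apart in each tumour. With the trends removed 20 had a single sign. With 3 tumours an exact sign-flip permutation test, two-sided, gives no p below 0.25, the value of these 19 (0.303 after Benjamini-Hochberg adjustment over the 23), so the design cannot bring such a difference under 0.05. Ccna2 against Ccna1 was left out because Ccna1 was listed at 0.

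Differences between tumours were then tested for the 39 members whose mean reached 1 FPKM, by Cochran's Q on the deposited standard errors. This test sets a difference against counting error alone, since there was 1 library per tumour, and 90.5% of all 11193 genes passed it at an adjusted p of 0.05. A ratio of at least 2 between the highest and the lowest tumour was therefore also required. By that rule 9 of 39 members differed, 23.1%, beside 32.1% of all genes. The 9 were Ccna2, Ccne1, Ccne2, Cdk8, Cdk9, Cdk19, Cdkn2a, E2f1 and Rb1. Just inside the ratio stood E2f1 at 2.01 and Cdk9 at 2.02, and just outside it Cdkn2c at 1.96, Ccnd2 at 1.93 and Ccnd1 at 1.85.

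Apart from Cdk19, which was highest in tumour 2, these members were split by the GC content of their transcripts. The 4 that were highest in tumour 1 (Ccna2, Ccne2, Cdk8 and Rb1) had 36.3 to 46.1% GC, and the 4 highest in tumour 3 (Ccne1, Cdk9, Cdkn2a and E2f1) had 50.5 to 60.2%. Over the 39 members the log2 difference of tumour 3 minus tumour 1 and GC content had a Pearson r of 0.77 as deposited. With the trends removed it was 0.01, a value largely set by the procedure, which fitted the trends on this same GC content. Both are descriptions over genes that share the same libraries. At any ratio 37 of the 39 passed as deposited, and 27 with the trends removed, beside 77.4% of all genes. With the ratio required, removing the trends left 4 members called, 10.3% of 39, beside 16.8% of all genes. These were Ccna2 and Cdk19, called in both cases, and Ccnd2 and Cdk6, called only after removal. Rb1 changed from 5.82, 2.82 and 2.76 FPKM to 3.77, 2.98 and 4.00 FPKM, and E2f1 spanned 1.87 to 2.07 FPKM after removal. Whether composition of the libraries accounts for the differences was not tested.

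**Figure D3:**
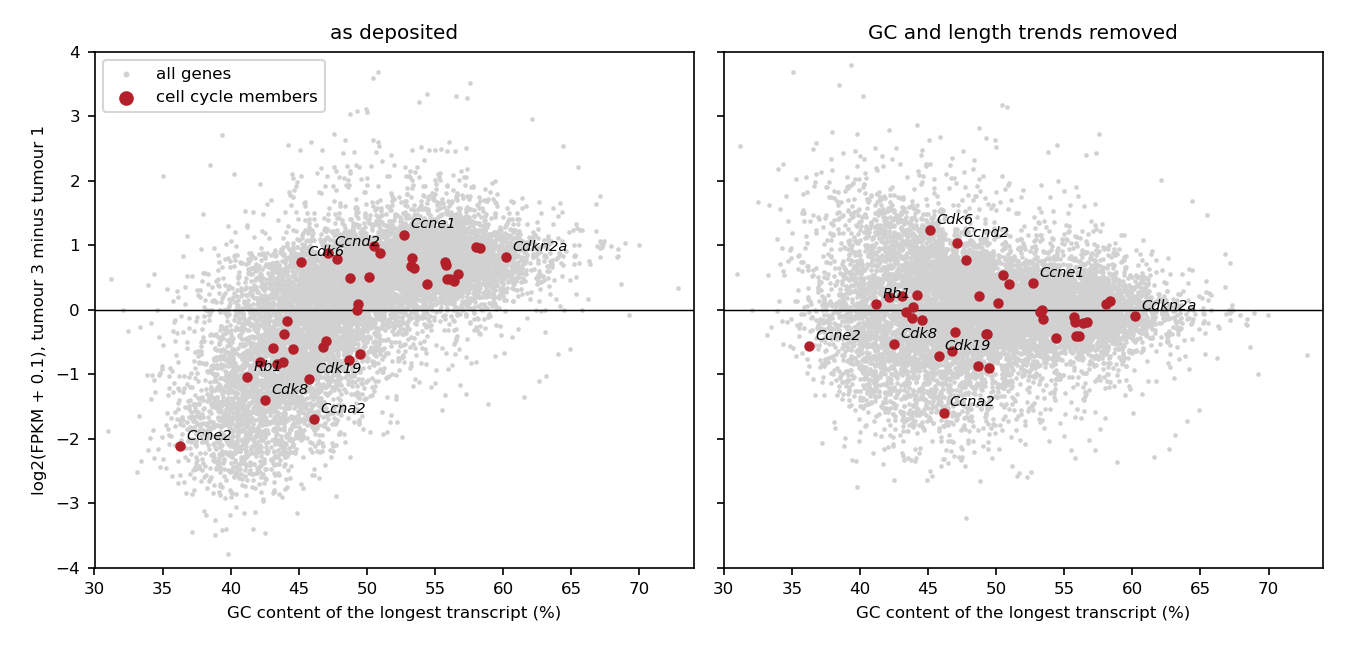
Difference of log2(FPKM + 0.1), tumour 3 minus tumour 1 (vertical axis), against the GC content of the longest transcript, as deposited and with GC and length trends removed. Red points are the 39 tested members, and grey points the other tested genes whose GC content was known. The members run from Ccne2 at low GC and -2.11 to Ccne1 at 1.16 as deposited, and Ccna2 stays at -1.60 after removal. In each panel 90 other genes beyond 4 log2 units are not drawn, nor are 2 beyond the GC axis.

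Of the 2 members called in both cases, Ccna2 had the larger ratio between tumours. It passed the test at a ratio of 3.26 as deposited (Q test adjusted p = 2.39e-181) and of 3.04 with the trends removed (6.58e-161), and was higher in tumour 1 than in tumours 2 and 3 in both. Cdk19 differed by ratios of 2.38 and 2.03 and was lowest in tumour 3 in both. Cdk6 stood at 2.69, 3.26 and 6.45 FPKM and Ccnd2 at 1.02, 1.26 and 2.19 FPKM with the trends removed, both highest in tumour 3. Sums of the marker lists of macrophages, adipocytes and T cells were also highest in tumour 3, at trend-removed levels of 774, 252 and 12.1 FPKM against 316, 46.5 and 1.86 FPKM in tumour 1, and their part in the levels of Cdk6 and Ccnd2 was not tested. Lyz2 made up most of the macrophage sum (555 FPKM in tumour 3), whereas Cd14 of the same list was lowest in tumour 3 at 48.6, 60.9 and 43.7 FPKM with the trends removed. Leaving out tumour 1 or 3 reduced the calls to 2 each, and those over all genes from 32.1% to 5.71% and 14.1%. Without tumour 1, Cdk19 and Cdkn2a remained called, without tumour 3 Ccne2 and Rb1, and without tumour 2 all but Cdkn2a. Ccna2 thus lost its call without tumour 1 and without tumour 3, at ratios of 1.77 and 1.84.

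**Figure D4:**
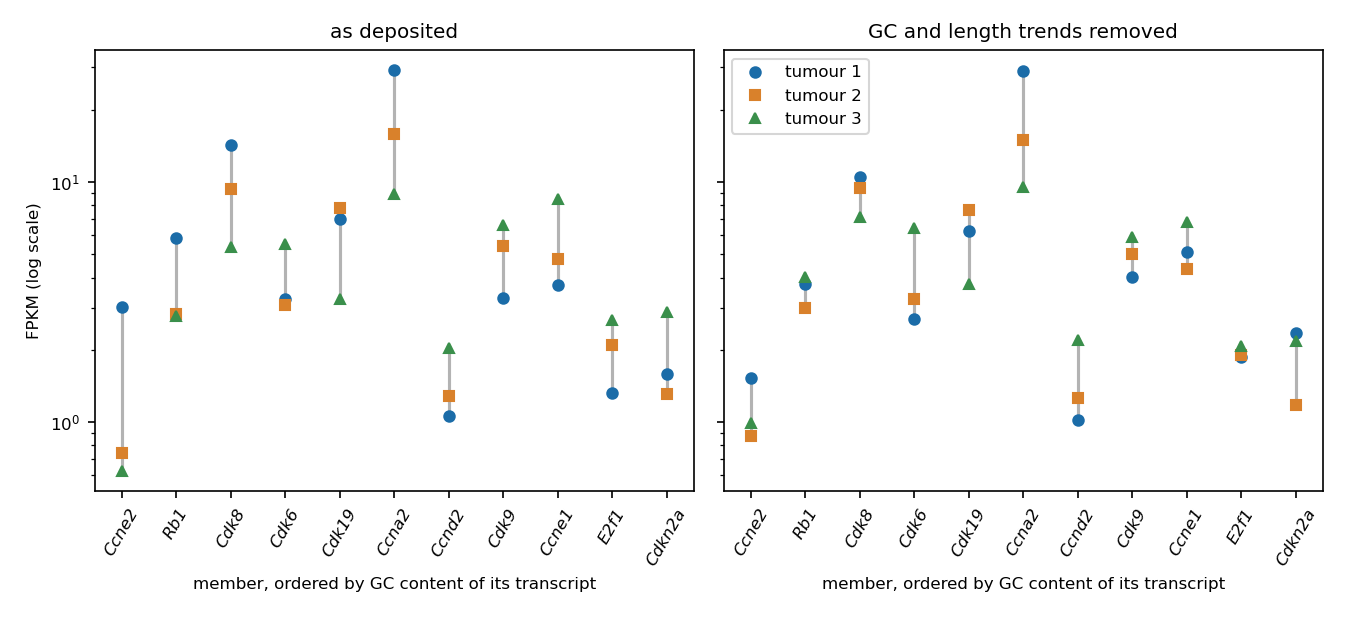
FPKM (log scale) in tumours 1 to 3 of the 11 members called different as deposited or with the GC and length trends removed, ordered by GC content of the transcript. Ccna2 keeps its spread in both panels, from 29.1 to 8.93 FPKM and from 29.0 to 9.52 FPKM, while E2f1 closes to between 1.87 and 2.07 FPKM.

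Other genes of the pathway, from lists chosen with earlier results in view, were mostly above 1 FPKM as well, beside 54.2% of all genes. The E2F partners and the MuvB core, which with pocket proteins forms the DREAM repressor complex, had 8 of 9 above and none below. The highest were the dimer partner Tfdp1 (16.5 ± 1.47 FPKM) and Rbbp4 (8.01 ± 2.23), and the lowest were Lin52 (1.87 ± 0.336) and the factor gene Mybl2 (1.30 ± 0.396), which was not separated from 1 FPKM. Lin9, a MuvB subunit, was called different between tumours at 10.8, 5.37 and 2.67 FPKM, and at 8.15, 5.39 and 3.50 FPKM with the trends removed. Lin54 and Tfdp2 were called as deposited and Rbbp4 with the trends removed.

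E2F target genes of S phase were above 1 FPKM in 15 of 16 cases, led by the sliding clamp gene Pcna (75.2 ± 3.12 FPKM) and the helicase gene Mcm7 (30.5 ± 8.37). Cdt1, a gene of replication licensing, was among the lower ones at 2.15 ± 0.405 FPKM. As deposited Mcm5, Tk1 and Pola1 were called different between tumours, the first pair highest in tumour 3 and Pola1 in tumour 1. Pola1, a DNA polymerase subunit gene, was called with the trends removed too, at 6.06, 2.54 and 2.96 FPKM.

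Of 12 genes of G2 and mitosis 10 were above 1 FPKM and none below. Birc5 (41.3 ± 3.94 FPKM) and Top2a (32.2 ± 21.0) led, and Cenpe and Bub1 (2.27 ± 1.98 and 2.19 ± 2.07 FPKM) were not separated from that level. By the Q test 7 of the 12 were called different between tumours, each highest in tumour 1, and 6 with the trends removed. Over all genes 32.1% were called as deposited, 15.5% called and highest in tumour 1, and 16.8% called with the trends removed. The proliferation marker gene Mki67 was at 27.5, 7.63 and 5.87 FPKM, or 24.8, 7.88 and 6.40 FPKM with the trends removed, and the topoisomerase gene Top2a at 42.0, 26.8 and 19.3 FPKM with the trends removed. Kif11, Ttk, Cenpe and Bub1 were called in both cases and Cenpf as deposited. As deposited these called genes had the order of Ccna2 and not that of Ccnb1, Ccnb2 and Cdk1. With the trends removed Ccnb2 had the order of Ccna2 too, at 19.3, 15.1 and 14.8 FPKM. Birc5, Aurka, Aurkb, Plk1 and Bub1b were not called, and as deposited each was lowest in tumour 1, with Aurka at 9.12, 12.7 and 16.3 FPKM. With the trends removed Aurkb and Plk1 were highest in tumour 1, Bub1b in tumour 2, and Birc5 and Aurka in tumour 3. The genes not called had transcripts of 47.4 to 56.0% GC, and the 7 called as deposited had 41.0 to 46.6%.

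Of 6 regulators of CDK phosphorylation 4 were above 1 FPKM. The phosphatase genes Cdc25c, Cdc25a and Cdc25b, which activate CDKs, and the inhibitory kinase gene Wee1 were above 1 FPKM, led by Cdc25c (6.68 ± 0.555 FPKM) and Wee1 (6.04 ± 0.989). Cdc25a was called different between tumours with the trends removed, at 2.95, 4.52 and 6.07 FPKM. Cdc14b was not separated from 1 FPKM, and Pkmyt1, the kinase partner of Wee1 in holding Cdk1 inactive, was below it at 0.487 ± 0.166 FPKM. Of 15 genes listed for the degradation of cyclins and CDK inhibitors, or for its control, 14 were above 1 FPKM. The ubiquitin ligase subunit genes Skp1a and Cul1 led at 151 ± 30.8 and 36.9 ± 22.4 FPKM. Skp2, the receptor for p27, and Anapc10 were lowest at 2.11 ± 0.472 and 1.51 ± 0.398 FPKM. Cul1 (59.9, 35.7 and 15.2 FPKM) and Fbxo5, an inhibitor of the anaphase-promoting complex (6.27, 2.77 and 1.62 FPKM), were called different between tumours as deposited and with the trends removed. Cdc27 and Ambra1, the latter an adaptor for degradation of D cyclins, were called as deposited.

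Among 17 other CDK subunits and activators 14 were above 1 FPKM and 2 below, and Cdk5r2 was listed at 0. Ccni (81.5 ± 15.96 FPKM) and the p53 target Ccng1 (28.1 ± 24.2) were the highest. Ccng1 was called different at 55.7, 17.9 and 10.7 FPKM, and at 36.4, 18.9 and 15.3 FPKM with the trends removed. Ccnl1, Ccnc and Ccnh were called as deposited, each highest in tumour 1 with transcripts of 35.5 to 41.0% GC, and Mnat1, the assembly factor of Cdk7 and Ccnh, with the trends removed. Ccno was the lowest of those above 0, at 0.0203 FPKM in tumour 1 and listed at 0 in the others.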

How the data were processed

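Total RNA of 3 tumours, 1 library each, was read from the authors' deposited FPKM per gene, which the file headers list with interval bounds and a status. TopHat, Cufflinks and mm9 are named, without roles or versions, in the submitters' processing notes. The sources used here do not state the annotation or strand setting. FPKM depends on the library total, so abundant transcripts lower all others. The 22310 rows were summed by symbol to 21881 symbols, and 182 symbols with a status other than OK were left out of tests. All 46 members were OK. The upper bound was taken as 2 standard errors above the FPKM, and implied fragments as (FPKM/standard error) squared. They were whole within 0.02 for 68.5 to 70.5% of rows under 60 fragments, too few for a count test.

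The level test was limma 3.58.1 (R 4.3.3, intercept only, trend, robust) on log2((FPKM + 0.1)/(1 + 0.1)). Cochran's Q (2 degrees of freedom) used SciPy 1.17.1. Both were run on simulated data, which for Q held counting error only and no variation between mice. GC content and length came from the longest GENCODE vM21 transcript by name (98.3% of symbols, all 46 members), and trends were removed by lowess (span 0.3) over 10856 genes. Coordinates of genes are mm9, from 1, and promoter windows are RefSeq on GRCm38.p6. Replicates are separate mice with the same line. The members, lists, contrasts and rules were chosen with earlier results of these data known. Named list genes are the 2 highest and 2 lowest by mean and those called different between tumours. A gene that this rule would name is not reported here. Alternatives were other pseudocounts, filters, scalings, thresholds, trend removal and leaving out each tumour.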

Additional observations from a re-analysis of the deposited data

How the results depend on the processing

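The count of members above 1 FPKM stayed between 31 and 39 in the 10 alternatives run. With only genes of a mean of at least 0.5 FPKM tested, the 5 members below 1 FPKM became 0, since that filter leaves out all 5. They were 2 against a level of 0.5 FPKM, and ranged from 3 to 5 when 1 tumour was left out. With each tumour scaled to an FPKM total of 1000000 they were 1. Scaled to that total, Cdk20 and E2f2 turned to 0.40 and 0.38 log2 units above 1 FPKM, neither called. The 9 members that differed between tumours became 4 with the GC and length trends removed, 27 with a ratio of at least 1.5, and 2 to 8 when 1 tumour was left out, beside 16.8%, 67.8% and 5.71 to 29.4% of all genes. With other scalings they were 11 and 12, and with no filter 10, beside 30.5%, 28.0% and 29.8% of all genes. With the trends removed, tumour 3 minus tumour 1 turned sign for 17 of 39 members, 2 of them among the 9 (Cdkn2a to -0.11, Rb1 to 0.084). Sign turns were not counted over all genes. Of the differences between members, 19 to 22 of 23 had a single sign in all alternatives. When 1 tumour was left out, Cdkn1a minus Cdkn1b ranged from -0.30 to 0.19 and E2f1 minus E2f3 from -0.0065 to 0.82, both lowest without tumour 3. Without that tumour the leading members changed in 2 of 9 roles (1 of 9 without tumour 1). No paired analysis was possible because there is 1 group. Members below 1 FPKM rested on few fragments, down to 1 for Cdk15.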
